A study of Rattus norvegicus with 4 samples.

Results

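Genes of blood vessel endothelium and of its barrier were followed in lumbar dorsal root ganglia (DRGs) of rats given vehicle or cisplatin, a platinum-based chemotherapeutic. The list holds Cdh5, Pecam1, Ocln, Cldn5 and Tjp1 of the cell junctions, Icam1 and Vcam1 of leukocyte adhesion, Vwf of haemostasis, and the receptor genes Tie1 and Tek. A gene entered if the gene count table held a protein-coding row under its name. This gave 9 of the 10 listed genes, out of 22293 protein-coding genes among 33506 rows, and 8 of them had enough counts to be tested.

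All 4 libraries came from neonatal wild-type Wistar rats, 2 treated with vehicle (PBS) and 2 with cisplatin at 0.3 mg/kg. The injections were intraperitoneal, at P14 and P16, and the ganglia were taken at P23. The sample labels place collection 16 days after treatment. Several ganglia were pooled for each library, polyadenylated RNA was sequenced, and which sex each library came from is not given in the sources used here. The total count per library ranged from 21384801 to 25618417, and the closest pair of libraries, vehicle replicate 2 and cisplatin replicate 2, still differed by more than sampling noise (chi-square per degree of freedom 46.2). The ganglion is a mixed tissue, so for every gene a smaller number of cells of one type and less RNA per cell cannot be told apart.

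Endothelial cells line blood vessels and control what leaves the blood. VE-cadherin (Cdh5) and PECAM-1 (Pecam1) hold neighbouring endothelial cells together, claudin-5 (Cldn5) and occludin (Ocln) form the strands of the tight junction, and ZO-1 (Tjp1) ties these strands to the cytoskeleton. Ocln and Tjp1 are also used by other cell types with tight junctions, perineurial and Schwann cells among them. ICAM-1 (Icam1) and VCAM-1 (Vcam1) are the endothelial surface proteins to which leukocyte integrins bind, and inflammatory cytokines induce both through the transcription factor NF-kB. Von Willebrand factor (Vwf) is stored in the Weibel-Palade bodies of endothelial cells and captures platelets, and Tie2 (Tek) and its partner Tie1 form the receptor system of the angiopoietins. Vessels around the cell bodies of the DRG are known to be more permeable than those inside the nerve.

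The promoters of Icam1 and Vcam1 are shown because these are the members that inflammation is known to switch on. RefSeq promoter entries of the GRCr8 build, which run from 250 bases before to 50 bases after the start site, matched 6 members (Ocln, Cldn5, Tjp1, Icam1, Vcam1 and Tie1). They were searched on both strands for GGNNNTTCC, an NF-kB-type motif. The capitals mark its matches, and every stretch lies before the start site.
Icam1 (chr8:27829597-27829734, plus strand): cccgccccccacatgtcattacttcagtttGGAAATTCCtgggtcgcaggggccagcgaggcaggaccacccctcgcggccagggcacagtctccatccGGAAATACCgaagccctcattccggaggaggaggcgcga
Vcam1 (chr2:206742838-206743033, minus strand): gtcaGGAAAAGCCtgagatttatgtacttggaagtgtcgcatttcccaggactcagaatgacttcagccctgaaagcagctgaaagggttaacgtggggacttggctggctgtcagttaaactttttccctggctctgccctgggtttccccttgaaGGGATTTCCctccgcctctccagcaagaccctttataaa
The matches began 218 and 149 bases before the start site of Icam1 and 246 and 93 bases before that of Vcam1. The letters TATAAA stood on the sense strand 53 and 60 bases before the start sites of Icam1 and Vcam1. Tjp1 and Tie1 held 1 match of GGNNNTTCC each, at 207 and 172 bases. Across 33469 rat promoters of the same length, 18.3% held GGNNNTTCC and 8.80% held TATAAA on the sense strand, so a match describes the sequence and marks no site.

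Compared per length, as FPKM (fragments per kilobase of gene and depth of library, as deposited), Tjp1 had the highest mean level over the 4 libraries with 16.4 FPKM. Tie1 followed with 8.54 FPKM, Cdh5 with 7.58, Vwf with 4.77, Tek with 3.82, Icam1 with 3.40, Vcam1 with 1.78 and Ocln with 0.924 FPKM. Neighbours in this order were separated by their ranges over the libraries only between Icam1 and Vcam1 and between Vcam1 and Ocln. Tjp1 was above Tie1, and Cdh5 above Vwf, within each of the 4 libraries, although their ranges across libraries met. The endothelial markers Cdh5, Tie1 and Tek were thus measured in every library, with 336 to 849 counts each.

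Cldn5 (ENSRNOG00000045811; chromosome 11, 86356294 to 86357718, Rnor_6.0, minus strand), the most abundant claudin of the blood-brain barrier, was at 0 counts in all 4 libraries. The floor of 3 counts corresponded to 0.118 to 0.152 CPM (counts scaled to library size with edgeR's TMM factors), for counting error only. The gene lies wholly inside Cdc45 (chromosome 11, 86329012 to 86358453, plus strand), a replication gene that received 79 and 106 counts in the vehicle and 82 and 91 counts in the cisplatin libraries. Of 569 protein-coding genes lying wholly inside a gene on the other strand, 30.8% were at 0 in all libraries, compared with 18.6% of 21438 genes that lie inside no other protein-coding gene. For 286 genes wholly inside a protein-coding gene on the same strand the share was higher still, 37.1%. Whether counting used strand is not given in the sources used here, and the part of this overlap in the value of 0 was not tested. No level of claudin-5 transcript can be read from this row.

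No row carried the name Pecam1. A single unnamed transcript row, annotated with the protein PECAM-1 of the rat, was found on chromosome 10 (94850978 to 94886248, minus strand) and is given outside the rule. It held 18.1 and 17.6 CPM in the vehicle libraries and 14.996 and 15.09 CPM in the cisplatin libraries, 452, 347, 381 and 355 counts. Both cisplatin values lay below both vehicle values, by a log2 difference of -0.25 (SE 0.20, 95% interval -0.73 to 0.24, adjusted p = 0.709 from edgeR over all biotypes). Its mean of 8.05 FPKM lay between those of Tie1 and Cdh5.

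**Figure D1:**
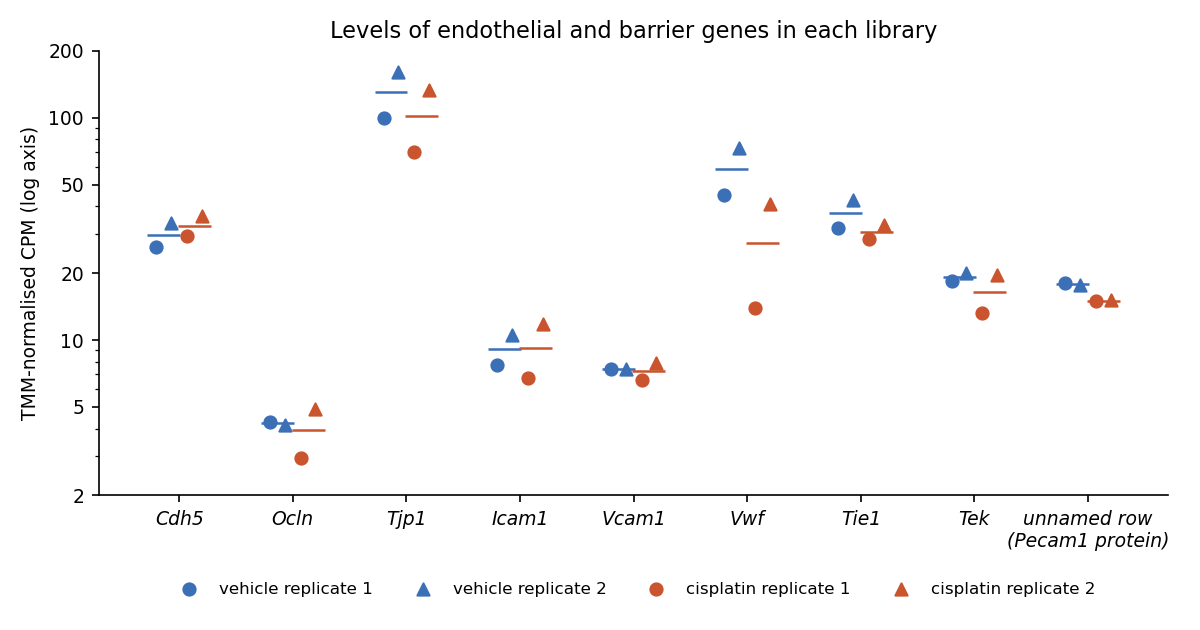
TMM-normalised CPM on a log axis for the 8 tested genes and the unnamed row, with a point per library (circles replicate 1, triangles replicate 2; blue vehicle, red cisplatin) and short lines at the group means. The vehicle and cisplatin points of Vwf and of the unnamed row do not overlap, and those of the other 7 genes do.

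Of the 8 tested genes, edgeR's quasi-likelihood test called 0 as different between cisplatin and vehicle, with a call set at a fold of 1.5 or more and an adjusted p below 0.05. The same rule called 0.00679% of the 14719 genes tested, a single gene that is no member. At an unadjusted p under 0.05, 0 members passed, against 1388 of all genes, and 7.95% of all genes passed that p together with the fold. DESeq2 called 0 members and 0.951% of all genes. Permuting 2 against 2 libraries exactly, two-sided, cannot give a p under 0.333. In log2 fold change 6 members were below 0 and 2 above, with a median of -0.17, where the median of all genes was -0.01 and 50.9% were below 0. The members' median was 0.069 without cisplatin replicate 1, -0.48 without cisplatin replicate 2 and -0.037 without vehicle replicate 2. The groups did not overlap in 1 of 8 members, Vwf, with cisplatin below, and in 0 with cisplatin above, while this held for 21.2% and 20.6% of all genes.

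Among the junction genes, Cdh5 (ENSRNOG00000013324; chromosome 19, 1023683 to 1074365) had 26.1 and 33.5 CPM in the vehicle libraries and 29.2 and 36.1 CPM in the cisplatin libraries. The values interleaved, with replicate 2 the higher in both groups. The log2 fold change was 0.13 (SE 0.23, 95% interval -0.44 to 0.70, adjusted p = 0.872). This interval leaves room for a rise or a fall of modest size in VE-cadherin transcript.

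Tjp1 (ENSRNOG00000011077; chromosome 1, 126146489 to 126227469) had 100.2 and 161 CPM with vehicle and 70.1 and 133 CPM with cisplatin. Cisplatin replicate 1 was the lowest library, but cisplatin replicate 2 lay between the vehicle libraries. The log2 fold change of -0.36 (SE 0.39, 95% interval -1.33 to 0.60, adjusted p = 0.775) was smaller than the log2 difference between replicates, 0.69 with vehicle and 0.92 with cisplatin. Between the cisplatin replicates 10.97% of genes differed more than Tjp1. With the replicate number as a block, Tjp1 passed the adjusted p but not the fold, at a log2 fold change of -0.39 (SE 0.12, adjusted p = 0.0422 from edgeR). The same numbers belong to different rats, and that fit called 10.4% of all genes by adjusted p and fold together. The share of all genes that passed the adjusted p alone, as Tjp1 did, cannot be smaller and is not given here.

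Ocln (ENSRNOG00000018297; chromosome 2, 30527715 to 30577218) was the lowest tested member per length, with 4.27 and 4.17 CPM in the vehicle and 2.95 and 4.89 CPM in the cisplatin libraries. These rest on 75 to 115 counts per library. The cisplatin libraries held both the lowest and the highest value, and the log2 fold change was -0.11 (SE 0.37, 95% interval -1.04 to 0.82, adjusted p = 0.936). At this depth a 1.5-fold difference in either direction lies inside the interval of occludin.

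Icam1 (ENSRNOG00000020679; chromosome 8, 22035256 to 22047059), the ligand of the leukocyte integrin LFA-1, had 7.75 and 10.6 CPM with vehicle and 6.73 and 11.8 CPM with cisplatin. Again the cisplatin libraries enclosed the vehicle libraries. The log2 fold change was 0.02 (SE 0.36, 95% interval -0.88 to 0.91, adjusted p = 0.992). Vcam1 (ENSRNOG00000014333; chromosome 2, 219071193 to 219097619), the ligand of the integrin VLA-4, had 7.39 and 7.42 CPM with vehicle and 6.61 and 7.86 CPM with cisplatin. Its log2 fold change was -0.03 (SE 0.26, 95% interval -0.68 to 0.61, adjusted p = 0.972). Both adhesion molecules, whose promoters are printed above, thus had group means that differed by less than the replicates of the cisplatin group did. The intervals still include differences of 1.5-fold.

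Vwf (ENSRNOG00000019689; chromosome 4, 158088505 to 158219523) showed the widest gap of the members. It had 45.1 and 72.8 CPM in the vehicle libraries and 13.9 and 40.9 CPM in the cisplatin libraries, from 1129, 1433, 354 and 963 counts. Both cisplatin libraries lay below both vehicle libraries, with cisplatin replicate 1 far below the other 3 and cisplatin replicate 2 close to vehicle replicate 1. The log2 fold change was -1.10 (SE 0.53, 95% interval -2.43 to 0.23, unadjusted p = 0.0877, adjusted p = 0.555 in edgeR and 0.415 in DESeq2). The cisplatin replicates themselves differed by 1.55 on the log2 scale, and 2.66% of all genes differed more. Without cisplatin replicate 1 the log2 fold change was -0.51, and without cisplatin replicate 2 it was -2.08. When the replicate number in the sample titles was entered as a block, although the numbers belong to different rats, it was -1.25 (SE 0.19, adjusted p = 0.00344 from edgeR), which made Vwf the 1 member called, in a fit that called 10.4% of all genes.

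The libraries also differed in the levels of cell type marker transcripts, and the values follow beside Vwf. The Schwann cell myelin gene Pmp22 had 10613 and 27166 CPM in the vehicle libraries and 8870 and 23948 CPM in the cisplatin libraries, so that replicate 2 was higher in both groups, as for Vwf. The 10 sensory neuron markers ran the other way, with 15918 and 12186 CPM in the vehicle and 20762 and 14480 CPM in the cisplatin libraries. The summed level of 28 other endothelial genes was 426 and 524 CPM with vehicle and 363 and 490 CPM with cisplatin, and was lowest in cisplatin replicate 1, the library with the lowest Vwf. The part of tissue makeup in the values of Vwf was not tested.

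The receptors Tie1 and Tek were close between the groups. Tie1 (ENSRNOG00000020173; chromosome 5, 137294532 to 137321101) had 31.8 and 42.6 CPM with vehicle and 28.4 and 33.02 CPM with cisplatin, with cisplatin replicate 2 just above vehicle replicate 1. The log2 fold change was -0.28 (SE 0.23, 95% interval -0.84 to 0.29, adjusted p = 0.707). Tek (ENSRNOG00000008587; chromosome 5, 113725717 to 113852799) had 18.4 and 20.1 CPM with vehicle and 13.2 and 19.6 CPM with cisplatin. Of the Tek values only that of cisplatin replicate 1 stood apart, and the log2 fold change was -0.23 (SE 0.26, 95% interval -0.87 to 0.41, adjusted p = 0.786). A pseudogene on the other strand overlaps Tek, and its row held no more than 1 count in any library.

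**Figure D2:**
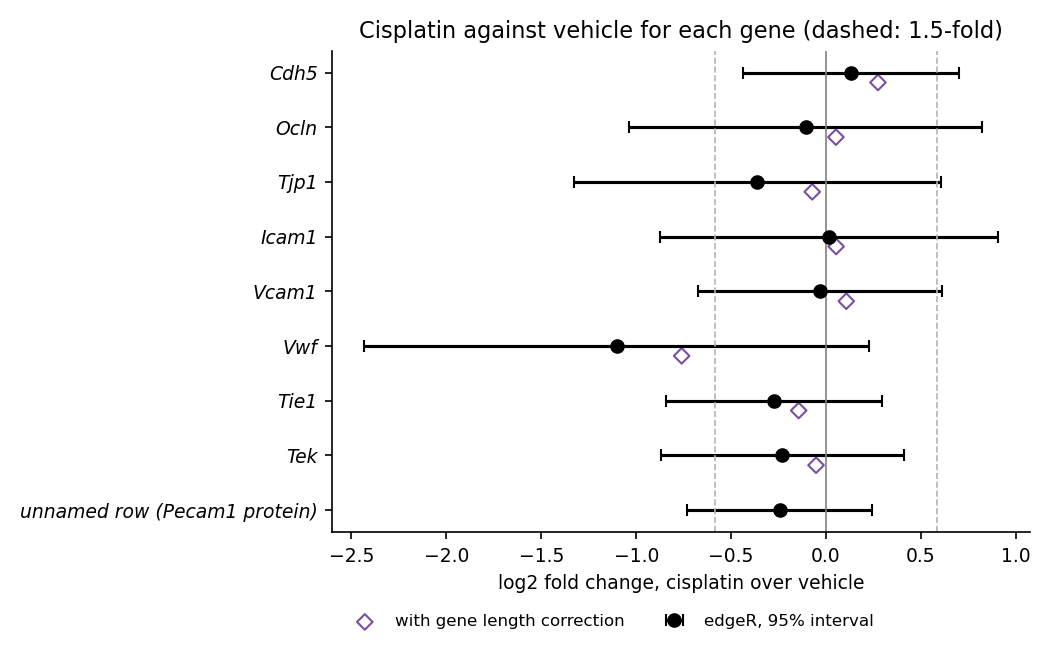
Log2 fold change of cisplatin over vehicle for the 8 tested genes and the unnamed row (black points, bars are 95% intervals from edgeR), with the value after a correction for gene length as open diamonds for the 8 tested genes. Every interval crosses 0, and the point of Vwf, at -1.10, is the only one past a 1.5-fold difference.

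To set each gene against the shared level of endothelial transcripts, its log2 CPM was taken relative to the mean of Cdh5, Tie1 and Tek, leaving a gene out of its own reference. The reference itself was 4.64 and 4.94 log2 CPM in the vehicle and 4.48 and 4.84 in the cisplatin libraries. On this scale Vwf was 0.86 and 1.25 above the reference with vehicle, and -0.67 and 0.52 with cisplatin, a difference of -1.13 (exact two-sided permutation p = 0.333, the smallest this design can give). Cdh5 was 0.11 and 0.20 above the mean of Tie1 and Tek with vehicle and 0.59 and 0.50 with cisplatin, a difference of 0.39 without overlap (exact permutation p = 0.333). When Vwf was added to the reference, the differences of Cdh5, Tie1, Tek, Ocln, Icam1 and Vcam1 came to lie between 0.20 and 0.73. Since Vwf was itself lower with cisplatin, its entry raises these differences by construction, and they are no separate results. Tie1 lay 0.53 and 0.71 above the mean of Cdh5 and Tek with vehicle and 0.53 and 0.31 above it with cisplatin, a difference of -0.20 (exact permutation p = 0.333) in which cisplatin replicate 1 all but met vehicle replicate 1. For Tjp1, Tek, Ocln, Vcam1 and Icam1 the groups overlapped on the relative scale, with differences of -0.27, -0.19, -0.02, 0.09 and 0.11. Cdh5, Tie1 and Tek stand in each other's reference, so the rise of Cdh5 and the fall of Tie1 are tied and are no separate results. In CPM the groups overlapped for both. The share of all genes without overlap on the relative scale was not computed.

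**Figure D3:**
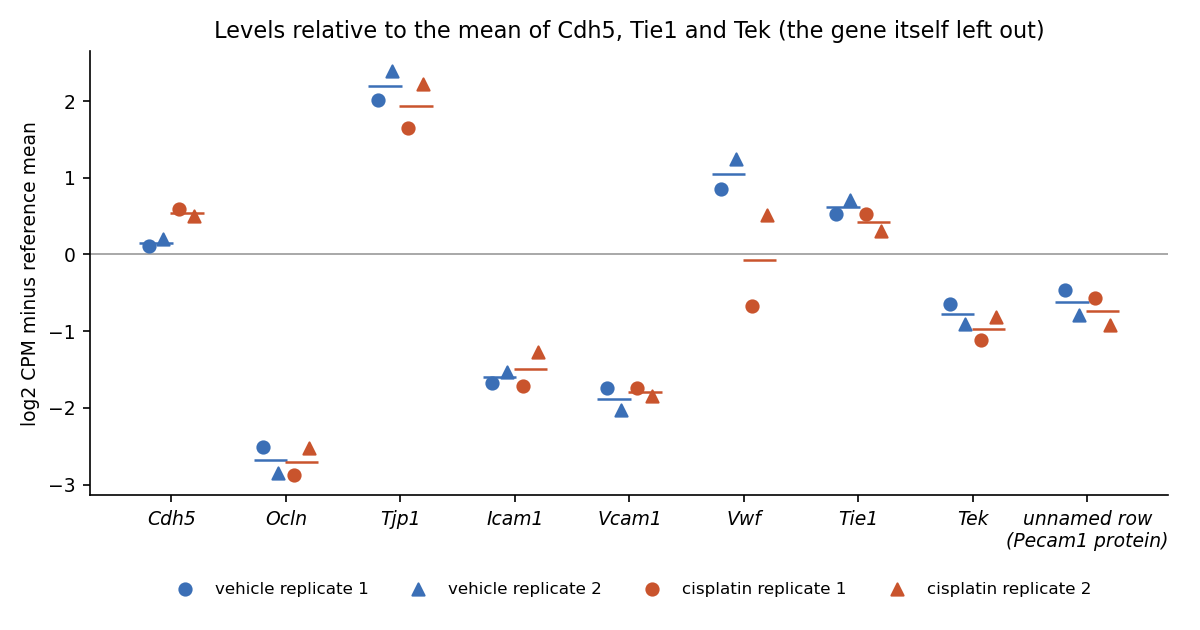
Log2 CPM of each gene minus the mean log2 CPM of Cdh5, Tie1 and Tek (the gene itself left out), by library, with short lines at the group means. Vwf and Tie1 lie lower and Cdh5 lies higher in both cisplatin libraries than in both vehicle libraries, by -1.13, -0.20 and 0.39. The values of Cdh5 and Tie1 are tied, since each stands in the reference of the other.

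Gene length moved with the fold changes of all genes. Spearman's rho between the log2 fold change and the length of a gene was -0.36 across the 14719 genes, which share the same 4 libraries and are not independent. Of 970 genes of at least 6000 bases, 84.4% were below 0, with a median of -0.32. Vwf, at 8829 bases, is longer than all but 1.603% of the genes tested, and Tjp1, at 6917 bases, than all but 3.98%. After a lowess correction for length in each library, the log2 fold change was -0.76 for Vwf (adjusted p = 0.783) and -0.07 for Tjp1. The median of the 8 members was then 0.00, and Ocln and Vcam1 turned to 0.05 and 0.11.

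**Figure D4:**
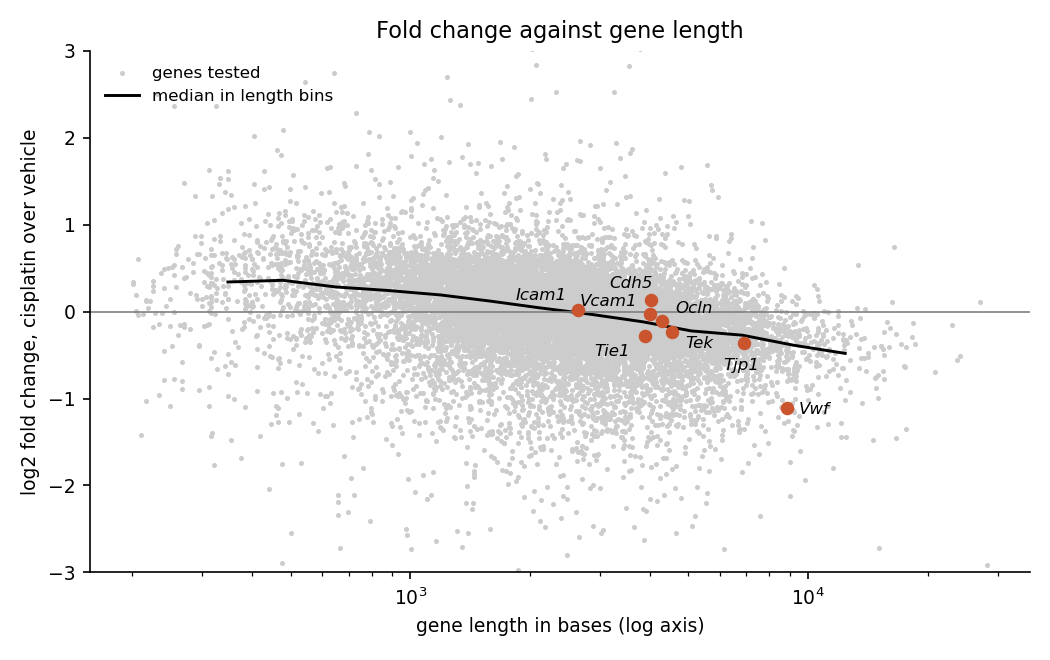
Log2 fold change of cisplatin over vehicle against gene length in bases (log axis), with the tested genes in grey, their median in length bins as a line and the 8 members in red. The median line falls from above 0 among short genes to below 0 among long genes, Tjp1 lies close to it and Vwf lies below it, and the shortest genes and those past 3 on the vertical axis are not drawn.

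Further genes of the vessel wall and of other cell types were chosen as lists with earlier results of these data known. In each of 17 lists edgeR called 0 genes, beside 0.00679% of the 14719 genes tested. Of the 28 other endothelial identity genes tested, 20 were below 0 and 8 above, with a median log2 fold change of -0.22, against -0.01 for all genes, and the groups did not overlap in 7 with cisplatin below and 3 with cisplatin above, where 21.2% and 20.6% of all genes did so. Ramp2, the co-receptor of adrenomedullin, Ecscr and Egfl7 had the highest FPKM of the list, with log2 fold changes of 0.36, -0.04 and -0.20. Ptprb, the endothelial phosphatase VE-PTP that acts on Tie2 and VE-cadherin, was picked out after its values were seen. It had 10.4 and 11.1 CPM in the vehicle and 3.11 and 6.04 CPM in the cisplatin libraries (log2 fold change -1.23, SE 0.38, adjusted p = 0.522). At 7060 bases Ptprb is among the genes of at least 6000 bases, of which 84.4% were below 0, with a median of -0.32. The length correction covered all genes tested, but the corrected value of Ptprb is not given here, and the part of length in its value was not tested. With the length correction the median of this list was -0.17.

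Among 11 genes of barrier transport and caveolae, 10 were below 0 and 1 above, with a median of -0.17, and 3 had no overlap, cisplatin below, beside 21.2% of all genes. The most abundant were Itm2a at -0.20, Cav1, the coat protein of caveolae, at 0.00, and Slc16a1, a monocarboxylate transporter, at -0.25. Of 19 other tight junction genes, 12 were below 0 and 7 above (median -0.12), led in FPKM by the Schwann cell claudin Cldn19 at -0.38 and Jam3 at -0.47. Across libraries Cldn19 was higher in replicate 2 of both groups, as Pmp22 was: it had 252 and 648 CPM with vehicle and 213 and 479 CPM with cisplatin. The 9 adherens junction partners had a median of -0.25, with the catenin genes Ctnnb1 at -0.25 and Ctnna1 at -0.25 and the cadherin gene Cdh1 at -0.35.

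The 7 other endothelial adhesion molecules tested had a median of -0.10, with Mcam at 0.08, Alcam at -0.26 and Cd99l2 at -2.12. Cd99l2, a molecule of leukocyte passage, had 24.6 and 16.0 CPM with vehicle and 8.34 and 0.935 CPM with cisplatin (SE 0.89, adjusted p = 0.532), and this name has another row in the table, so its split of reads is uncertain. The leukocyte side of adhesion was low or even between groups: of 8 counter-receptor genes, 4 were above 0 and 4 below, with a median of -0.05. Itga4, the VCAM-1-binding integrin subunit, had 4.19 and 5.79 CPM with vehicle and 2.05 and 2.13 CPM with cisplatin (log2 fold change -1.26, SE 0.35, adjusted p = 0.522), while the broadly used subunit Itgb1 was at -0.11 and the selectin ligand Selplg at -0.30.

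Of 13 angiopoietin, Weibel-Palade and haemostasis genes, 7 were above 0 and 6 below, with a median of 0.02. Cd63, a membrane protein of Weibel-Palade bodies and of lysosomes, was at 0.08, the plasminogen activator Plat at 0.37 and Stxbp5 at -0.31. The angiopoietin gene Angpt2, a Tie2 ligand stored beside von Willebrand factor and picked after its values were seen, had 8.35 and 6.60 CPM with vehicle and 9.72 and 10.1 CPM with cisplatin (log2 fold change 0.40, SE 0.25, adjusted p = 0.626). F8, of the same list and also picked with its values in view, went the other way. It had 23.1 and 33.1 CPM with vehicle and 15.3 and 21.1 CPM with cisplatin (log2 fold change -0.63, SE 0.28, adjusted p = 0.541), and is 8330 bases long. Of 8 NF-kB-inducible genes, the class to which Icam1 and Vcam1 belong, 3 were above 0 and 5 below, with a median of -0.09. The NF-kB inhibitor gene Nfkbia was at -0.11, Nfkb2 at -0.32 and the chemokine gene Ccl2 at 1.32 (adjusted p = 0.522).

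Cells that surround the endothelium were read in the same way. The 11 pericyte and smooth muscle markers had 9 genes below 0 and 2 above and a median of -0.34, and 5 had no overlap, cisplatin below, beside 21.2% of all genes. Of these, Tagln was at 0.17, Acta2 at -0.17 and Rgs5, a pericyte marker, at -0.74 (SE 0.25, adjusted p = 0.522). Notch3, the pericyte Notch receptor named after its values were seen, had 50.3 and 51.4 CPM with vehicle and 26.8 and 32.0 CPM with cisplatin, close within each group (log2 fold change -0.79, SE 0.19, adjusted p = 0.522). At 7313 bases Notch3 is also among the genes of at least 6000 bases, of which 84.4% were below 0. Its length-corrected value is not given here either, and the part of length in its value was not tested. Only 3 lymphatic endothelial markers were tested, with a median of 0.47: Pdpn at 0.54, Lyve1 at 0.47 and Flt4 at -0.01. The other listed markers had too few counts to be tested. Prox1 had 11 and 6 counts with vehicle and 4 and 1 with cisplatin, and Mmrn1 had 3 and 3 with vehicle and 5 and 4 with cisplatin. No level of lymphatic endothelium can be read from this median. The 3 perineurial markers tested, Itgb4, Slc2a1 and Cldn1, lay at -0.23, 0.06 and 0.03.

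**Figure D5:**
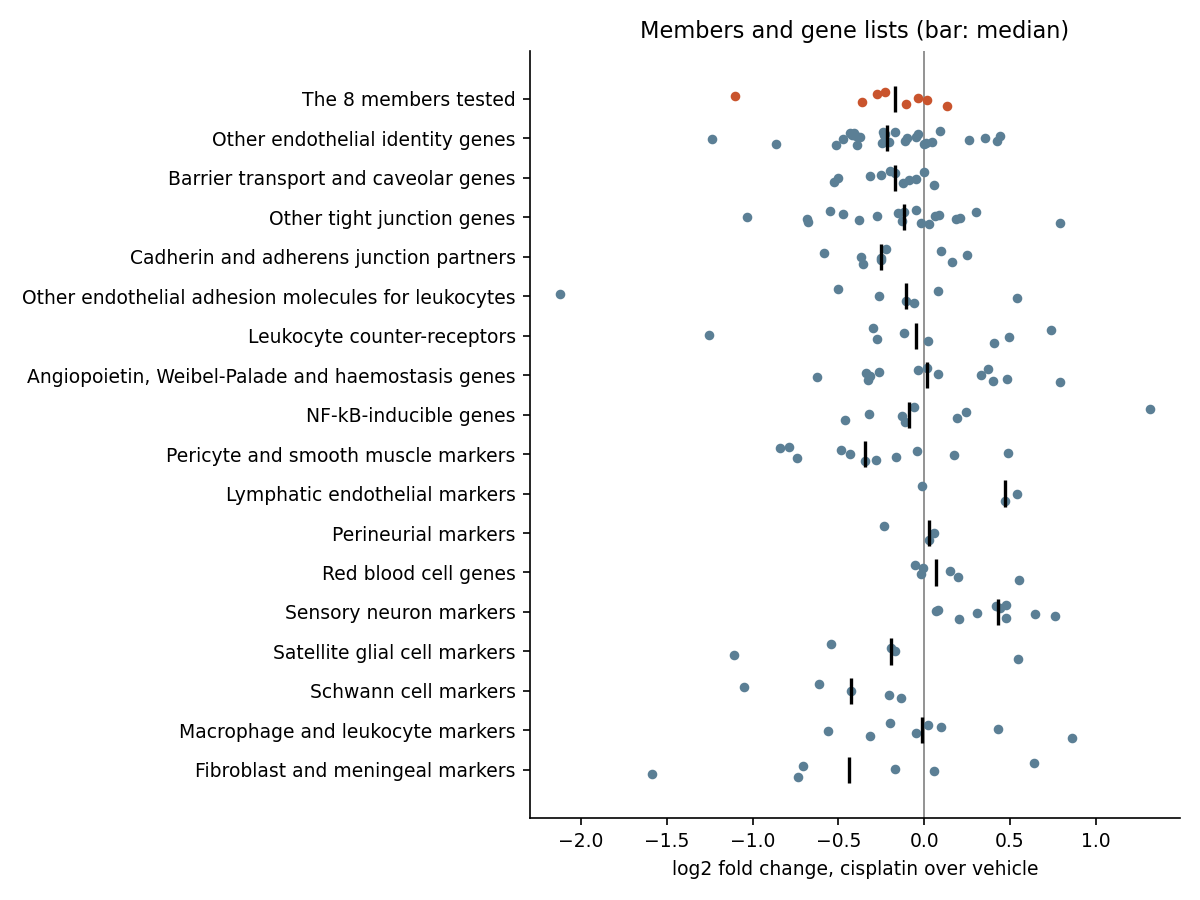
Log2 fold change of cisplatin over vehicle for the 8 tested members (top, red) and for each tested gene of the 17 lists (points), with a bar at the median of each. The bars of the members and of the endothelial identity, barrier transport, adherens junction and pericyte lists lie between -0.34 and -0.17, and that of the sensory neuron markers lies at 0.43. Lists of other cells lie as low, with fibroblast markers at -0.44, Schwann cell markers at -0.43 and satellite glial markers at -0.19.

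Marker transcripts of the other cell types of the ganglion were read as well. All 10 sensory neuron markers were above 0 (median 0.43), with the groups apart in 4, cisplatin above, beside 20.6% of all genes, and Uchl1, Prph and Nefh lay at 0.77, 0.31 and 0.07. The median of the neuron markers was 0.089 without cisplatin replicate 1 and 0.21 without vehicle replicate 2. All 5 Schwann cell markers were below 0 (median -0.43), with Pmp22 at -0.20 and Mbp at -0.43, and the groups overlapped in each. Satellite glial markers had a median of -0.19 over 5 genes, with Glul at -0.17 and Fabp7 at 0.55. Fibroblast and meningeal markers had a median of -0.44 over 6 genes, including Col1a2, a collagen gene that DESeq2 called lower (log2 fold change -1.59 in edgeR, DESeq2 adjusted p = 0.0078). Macrophage and leukocyte markers had a median of -0.01 over 8 genes, with Csf1r at -0.05, Aif1 at -0.32 and Cd68 at 0.86. Red blood cell genes had a median of 0.07 over 6 genes, with Hba1 at 0.20, Hbb at -0.02 and Hba2 at 0.55, where near-identical globin copies can share reads. The part of any of these cell types in the values of the members was not tested.

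The genes whose profile over the 4 libraries was most like the mean of Cdh5, Tie1 and Tek were Ctcf, Mybbp1a, Fbxl5, Nfya and Cyp20a1. Their root-mean-square differences from it were 0.0082, 0.013, 0.018, 0.019 and 0.020 on the log2 scale. Ctcf, a chromatin insulator protein gene, had 45.7 and 57.2 CPM with vehicle and 41.1 and 53.2 CPM with cisplatin. With 4 libraries such likeness is common, since 722 of 11053 candidate genes lay within 0.1 of the reference profile. Among members outside the reference, the difference was 0.72 for Vwf, 0.28 for Tjp1, 0.17 for Ocln, 0.17 for Icam1 and 0.12 for Vcam1. Of these, Vwf followed the reference profile least. Cdh5, Tie1 and Tek were at 0.13, 0.095 and 0.11, but each was compared with a mean that includes it. Their values are low in part by construction and cannot be ranked with the others.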

How the data were processed

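Wistar rat lumbar DRG libraries, 2 vehicle and 2 cisplatin, were grouped from their labels. The authors deposited raw counts per gene and FPKM values. Per the submitters' processing notes, HISAT2 2.0.5, StringTie 1.3.3b and featureCounts 1.5.0-p3 were used, and the study's methods give the Ensembl Rnor_6.0 genome. In each library the deposited FPKM followed from count and gene length with a single constant, within 0.1% for genes with at least 20 counts. Rows without a gene name (961 rows, at most 1.64% of counts) were left out, except the one with the PECAM-1 protein.

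Protein-coding genes kept by filterByExpr were TMM-normalised (factors 1.10, 0.941, 1.03 and 0.938). The test was glmQLFTest after glmQLFit in edgeR 4.0.16 (R 4.3.3), without a block and with Benjamini-Hochberg adjustment over the 14719 genes tested. Adjusted p-values are from edgeR unless named. CPM values are TMM-normalised, and for levels relative to the reference a prior count of 2 was added before the log2. Floors cover counting error only, since without molecular identifiers reads are no independent molecules. Replicates are different rats per the labels.

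Alternatives were DESeq2 1.42.0, its size factors, library size alone, other count filters, all biotypes, unadjusted p, limma 3.58.1 on log2(FPKM + 1) and log2(FPKM + 0.1), which understates differences of low genes, the replicate block, leaving out each library, and the length correction (lowess span 0.3). The unnamed row in the reference or in the test was added once the files had been seen. The reference was planned with Pecam1, which has no named row, so 3 genes remained.

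The members and lists were chosen with earlier results of these data known. All members were named. From each list the genes called in edgeR or DESeq2 were named, otherwise the 3 of highest mean FPKM, together with the 5 genes nearest to the reference profile among genes of at least 5 CPM. Ptprb, Notch3, Angpt2 and F8 fall outside the rule and were picked with their values in view. Prox1 and Mmrn1 are named because they could not be tested. Values of a few genes that the rule names are left out here. Of 176 list entries (171 genes), 4 matched by an older symbol and 6 had no row. The scripts were tested on simulated data. Beyond the RefSeq promoter table, no genome sequence was used here.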

Additional observations from a re-analysis of the deposited data

How the results depend on the processing

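No member was called in edgeR without the block, in DESeq2, with limma on FPKM, or at an unadjusted p with the fold rule. Same-numbered libraries are different rats, and the log2 differences between replicates 2 and 1 correlated between the groups across genes (Pearson's r = 0.444). With 2 pairs this shows no pairing. The replicate block called 494 genes higher and 1038 lower, 17 list genes and 1 member, Vwf at -1.25. With the block and the length correction these were 254, 709, 11 and 1, Vwf at -0.88. Over all alternatives, 466 values stayed within the limit for their kind (direction and call of a tested gene, the replicate spread for a median or relative level, 1.5 times for a count), 67 did not, 17 tested fold changes turned sign and 2 gained a call. Medians within that spread could still turn sign.

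Genes called higher and lower were 2 and 2 without a filter on low counts, 50 and 90 in DESeq2, 407 and 763 at unadjusted p, and 2 and 2 with limma on log2(FPKM + 1). One gene (1) was called higher with at least 10 counts in every library and with log2(FPKM + 0.1). List genes called were 1 in DESeq2 and 7 at unadjusted p. With the length correction the medians were 0.057 for tight junction, -0.14 for adherens junction, 0.17 for leukocyte counter-receptor, -0.15 for pericyte and 0.19 for macrophage genes, and with the block added 0.063, -0.16 and 0.20 for the first 3 of these and 0.20 for macrophage genes. The adherens median was -0.31 with library size alone, and the lymphatic median 0.26 with log2(FPKM + 1). Ocln turned to 0.052 with the length correction and 0.012 with the block added, Vcam1 to 0.11 and 0.10. Icam1 turned to -0.042 with library size alone, -0.0062 and -0.016 with log2(FPKM + 1) and log2(FPKM + 0.1), and -0.020 with the block. The differences relative to a reference with Vwf added were 0.73 for Cdh5, 0.26 for Ocln, 0.39 for Icam1, 0.37 for Vcam1, 0.20 for Tie1 and 0.21 for Tek. These last shifts follow by construction from the lower Vwf entering that reference, and the cause of the other shifts was not tested.

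Leaving out 1 library at a time gave 0 to 4 genes called higher, 0 to 4 called lower and 2 to 8 members below 0, the 2 without cisplatin replicate 1. The medians ranged from -0.48 to 0.069 for the members, -0.10 to 0.020 for tight junction, -0.33 to 0.10 for endothelial adhesion, -0.19 to 0.16 for perineurial, 0.089 to 0.65 for neuron, -0.85 to -0.062 for fibroblast, -0.48 to -0.012 for endothelial identity, -0.47 to -0.051 for barrier transport, -0.40 to -0.068 for adherens junction, -0.095 to 0.28 for leukocyte counter-receptor, -0.29 to 0.35 for angiopoietin and Weibel-Palade, -0.27 to 0.21 for NF-kB-inducible, -0.69 to -0.086 for pericyte, 0.19 to 0.63 for lymphatic, -0.14 to 0.28 for red blood cell, -0.63 to -0.11 for satellite glial, -1.49 to 0.34 for Schwann and -0.17 to 0.23 for macrophage genes. Tie1 ranged from -0.46 to -0.046, and relative to the reference Tjp1 ranged from -0.55 to 0.016, Ocln from -0.19 to 0.16, Icam1 from -0.11 to 0.32 and Vcam1 from -0.057 to 0.24. The members that turned ranged from -0.029 to 0.33 for Cdh5, -0.52 to 0.22 for Ocln, -0.90 to 0.042 for Tjp1, -0.44 to 0.38 for Icam1, -0.16 to 0.10 for Vcam1 and -0.54 to 0.037 for Tek.

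These 4 libraries limit every statement: 6 of the 8 members turned sign when 1 library was left out, Ocln, Vcam1, Tek and Tjp1 without cisplatin replicate 1, Cdh5 and Icam1 without cisplatin replicate 2 or vehicle replicate 1, and Tjp1 without vehicle replicate 2, and a lone library is then assumed to vary like the others. Cldn5 and Pecam1 could not be tested under their names.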
